A study of Mus musculus with 8 samples.

Results

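The endoplasmic reticulum (ER)-associated degradation (ERAD) machinery was followed through 10 genes, Os9, Edem1, Dnajb9, Sel1l, Syvn1, Herpud1, Derl1, Derl2, Ube2j1 and Vcp. They were taken by symbol from the 22065 named genes of the count table, with earlier results of these data known. All 10 passed the expression filter that left 16444 genes for testing. RNA was measured in 8 libraries of hematopoietic stem cells (HSCs), each made from 100 sorted cells of the bone marrow of C57BL/6 mice aged 8 to 10 weeks. The sort gate was Lineage-, CD150+, CD48- and EPCR+. The 4 Mitol KO libraries came from Mitol Flox/Flox; MX1-cre mice, and the 4 control libraries from Mitol Flox/Flox littermates without MX1-cre. All mice of both groups had received Poly:IC, an inducer of interferon, about a week before the cells were taken, so the controls carried the floxed alleles and the Poly:IC exposure but not the recombinase. MX1-cre is switched on by interferon and is not restricted to HSCs, so the stem cells of the Mitol KO group came from a marrow in which other cells could also have lost Mitol. The labels do not say whether each library came from a separate mouse, and p-values measure the spread between these libraries.

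ERAD removes proteins that fail to fold in the ER. Lectins of the ER lumen read trimmed sugar chains on the failed protein and hand it to a ubiquitin ligase complex in the ER membrane, which is built around HRD1 (the product of Syvn1) and its partner SEL1L. The protein is drawn back through the membrane, tagged with ubiquitin on the cytosolic side, pulled out by the VCP ATPase and passed to the proteasome. Many ERAD genes are targets of the unfolded protein response, the signaling that ER stress starts through the sensors IRE1α, PERK and ATF6, and stem cells of the blood depend on this clearance for their maintenance. MITOL, a ubiquitin ligase of the outer mitochondrial membrane encoded by Marchf5, is known to act on IRE1α, and the comparison addresses whether loss of MITOL went with a different level of the ERAD transcripts in HSCs.

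Because ERAD genes are regulated through short promoter elements, the promoters of the 10 genes were searched on both strands for ERSE (CCAAT, then 9 bases of any kind, then CCACG), ERSE-II (ATTGG, then any base, then CCACG) and the UPRE (TGACGTGG). ERSE and ERSE-II share the letters CCACG and, on opposite strands, CCAAT. RefSeq promoters (GRCm38.p6, from 250 bases before the gene start) were given for 9 of the 10, and Derl1 had none. Syvn1 held ERSE, which stood in 0.113% of all 32851 RefSeq promoters, and Herpud1 held ERSE-II, which stood in 0.0304%. Vcp and Ube2j1 held the UPRE, which stood in 0.563%. In the wider ERAD list described below, 50 genes had a promoter. The same search found ERSE in 1 of these, and ERSE-II and the UPRE in none. The stretches that hold these matches are shown since their genes are the ones described below, each 5′ to 3′ on the strand of its gene, ending at the last base before the GENCODE gene, with the match in capitals. Each stretch occurs once on its chromosome in GRCm39.
Syvn1, ERSE, chr19:6096446-6096605, plus strand: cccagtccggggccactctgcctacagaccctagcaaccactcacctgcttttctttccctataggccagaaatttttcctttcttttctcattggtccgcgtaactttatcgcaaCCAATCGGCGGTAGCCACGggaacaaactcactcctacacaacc
Herpud1, ERSE-II, chr8:95112897-95113021, plus strand: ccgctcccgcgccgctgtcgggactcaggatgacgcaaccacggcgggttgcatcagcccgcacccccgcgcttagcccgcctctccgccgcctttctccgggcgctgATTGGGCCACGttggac
Vcp, UPRE, chr4:43000528-43000667, minus strand: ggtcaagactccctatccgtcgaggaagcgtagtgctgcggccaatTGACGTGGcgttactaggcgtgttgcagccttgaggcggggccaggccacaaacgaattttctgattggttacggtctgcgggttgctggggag
Ube2j1, UPRE on the opposite strand, chr4:33031220-33031368, plus strand: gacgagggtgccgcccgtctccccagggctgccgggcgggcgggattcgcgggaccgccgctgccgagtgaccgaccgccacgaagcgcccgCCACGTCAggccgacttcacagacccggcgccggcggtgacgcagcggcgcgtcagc
The match ended 25 bases before the gene in Syvn1, 6 in Herpud1, 86 in Vcp and 49 in Ube2j1. A match is a match of letters, and binding of a factor was not measured. Edem1, Os9, Sel1l, Derl2 and Dnajb9 held none of the 3 elements as written in this window.

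Counts on named genes summed to between 7214935 and 12398138 per library. Normalized counts below are the deposited counts after scaling by DESeq2 size factors. Fold changes and their p-values come from the edgeR quasi-likelihood fit over all 16444 genes, with p-values adjusted by Benjamini-Hochberg, and a gene was called at an adjusted p under 0.05. Marchf5 itself, the deleted gene, had 276, 232, 308 and 281 normalized counts in Mitol KO replicates 1 to 4 and 299, 312, 333 and 262 in control replicates 1 to 4 (log2 fold change -0.15, SE 0.13, adjusted p = 0.498). Its total count therefore did not mark the deleted libraries, and counts per gene cannot separate deleted exons from the others. All 7 HSC marker genes examined were present, with sums of 18740 to 22155 normalized counts in Mitol KO and 26737 to 32006 in control libraries. Kit (mean 7057 against 11706) and Hlf (5573 against 9505) fell. Slamf1 (log2 fold change 0.56, adjusted p = 0.0501 by edgeR) and Ly6a (0.76, 0.0605) had higher means in Mitol KO. DESeq2 called 4 of the 7 HSC genes, 2 of them as higher. Of 9 cell cycle genes 7 rose, and their sums were 18609, 18382, 12983 and 8404 in Mitol KO replicates 1 to 4 against 5796 to 8134 in control libraries. The sums of 7 erythroid genes were 968, 987, 4634 and 2099 in Mitol KO replicates 1 to 4 and 374 to 794 in control libraries, and Mitol KO replicate 3 stood apart by Hbb-bs and Slc4a1. Of the erythroid genes Hbb-bt rose, and of the megakaryocyte genes Pf4 fell. None of the tested neutrophil, B-lineage, plasma cell, T-cell, mast cell or monocyte markers was called by edgeR, while DESeq2 called the neutrophil gene Prtn3 and the plasma cell gene Sdc1 as higher.

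None of the 10 ERAD genes was called by edgeR, where 8.43% of all tested genes were called. DESeq2 and limma-voom also called 0 of the 10, against 14.7% and 8.35% of all genes, and edgeR again called 0 of the 10 without Mitol KO replicate 3, the library with the highest erythroid sum. At an unadjusted p under 0.05 stood 3 of the 10, Ube2j1, Edem1 and Vcp, all with a higher mean in Mitol KO HSCs, where 26.4% of all genes passed in either direction and 13.6% in this direction. Ube2j1 was the only gene of the 10 in which the 4 Mitol KO libraries and the 4 control libraries did not overlap, a pattern found in 15.4% of all tested genes, and in 8.17% with Mitol KO higher. The log2 fold changes of the 10 ran from -0.44 in Dnajb9 to 0.32 in Ube2j1. Their median was 0.049, beside -0.020 over all tested genes, with 7 positive and 3 negative. With upper-quartile scaling the median of the 10 was -0.013 and that of all genes -0.082, and Syvn1, Sel1l and Herpud1 turned negative, so the balance of signs depended on the scaling. In absolute size the median log2 fold change was 0.13 for the ERAD genes and 0.25 for all tested genes. Control means of the 10 ran from 281 to 1316 normalized counts, and genes of like level were not compared. In these libraries of sorted cells, a smaller number of cells with a transcript and less of it in each cell cannot be told apart.

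**Figure D1:**
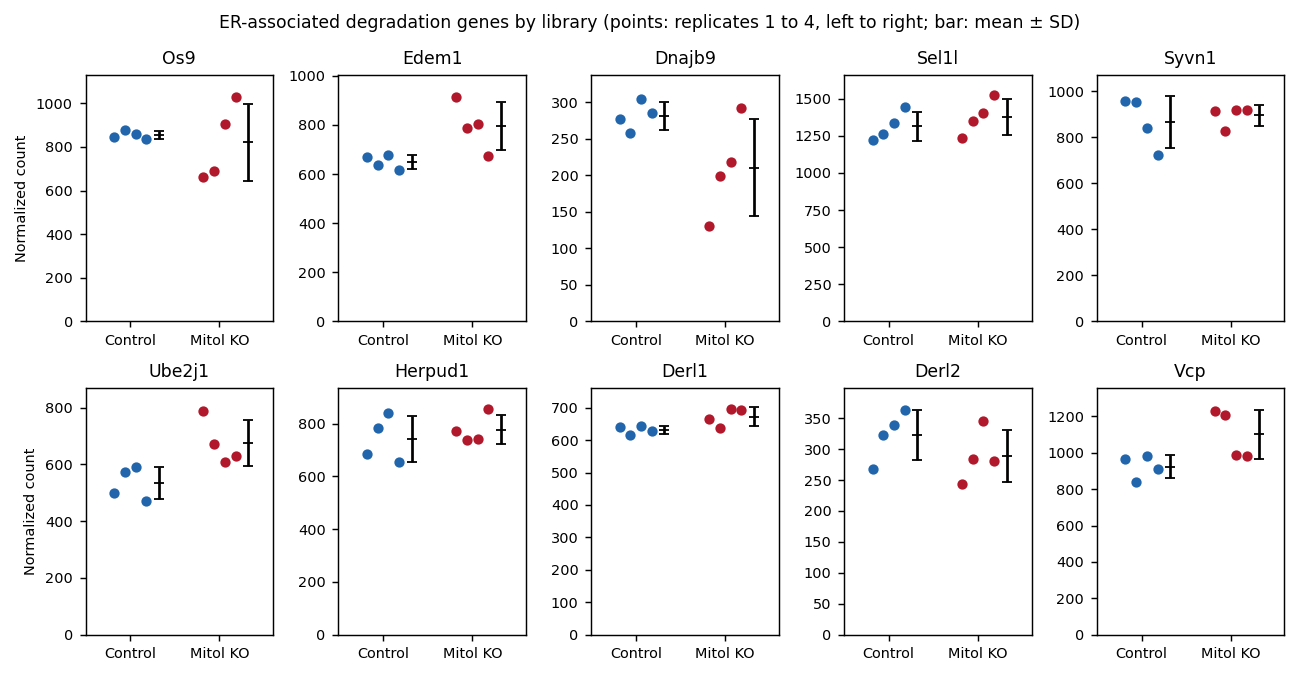
Normalized count (linear axis from 0) of each ERAD gene in each control (blue) and Mitol KO (red) library, replicates 1 to 4 from left to right, with the mean ± SD of 4 libraries as a black bar. The red and blue points of Ube2j1 do not overlap (610 to 790 against 472 to 591), and Dnajb9 and Os9 spread more widely in Mitol KO than in control libraries.

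At the entry to the pathway stand the proteins that pick out failed glycoproteins. Edem1 (chr6:108805457-108838955, plus strand) encodes an ER protein that helps trim mannose from misfolded glycoproteins and so marks them for disposal. Its normalized counts were 916, 789, 806 and 674 in Mitol KO replicates 1 to 4 and 670, 637, 677 and 616 in control replicates 1 to 4. Mitol KO replicates 1 to 3 lay above every control library, and replicate 4 lay within the control range. The log2 fold change was 0.27 (SE 0.10, 95% interval 0.047 to 0.50, unadjusted p = 0.0217, adjusted p = 0.119), and the exact permutation test gave p = 0.0571 (2-sided, n = 4 against 4), where 0.0286 is the smallest p that 70 arrangements can give. Without Mitol KO replicate 4 the fit did call Edem1 (log2 fold change 0.37, adjusted p = 0.0297), while over the other libraries left out in turn and the other tools, filters and scalings its adjusted p was at least 0.0789 and reached 0.289. Leaving out replicate 4 also raised the calls over all genes, from 1386 to 2501.

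Os9 (chr10:126930436-126957055, minus strand) encodes a lectin that reads the trimmed sugar chain and brings its cargo to SEL1L. It counted 661, 691, 904 and 1028 in Mitol KO and 845, 876, 861 and 834 in control replicates 1 to 4. The control libraries lay close together, with a coefficient of variation of 2.12%, whereas that of the Mitol KO libraries was 21.4%, with 2 of them below and 2 above all controls. A spread taken from 4 libraries is itself imprecise, and the difference in spread was not tested. The means of 821 ± 175 and 854 ± 18.1 (SD, n = 4) were nearly equal, with a log2 fold change of -0.075 (95% interval -0.37 to 0.22, adjusted p = 0.771). Its sign turned when Mitol KO replicate 1 (0.021) or replicate 2 (0.0043) was left out.

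Dnajb9 (chr12:44252341-44257171, minus strand) encodes ERdj4, a J-domain cochaperone of BiP that binds unfolded proteins in the ER and hands BiP to IRE1α to keep this sensor quiet. It had the largest negative fold change of the 10 genes. Normalized counts were 131, 200, 219 and 292 in Mitol KO replicates 1 to 4 and 277, 258, 304 and 286 in control replicates 1 to 4. Mitol KO replicates 1 to 3 lay below every control library, and replicate 4 lay among them. The mean of 210 ± 66.3 stood against 281 ± 19.4 (SD, n = 4), with a log2 fold change of -0.44 (SE 0.20, 95% interval -0.88 to 0.0021, unadjusted p = 0.0510, adjusted p = 0.191). By the exact permutation test p was 0.114 (2-sided). Without Mitol KO replicate 4 Dnajb9 was called (log2 fold change -0.62, adjusted p = 0.0366), and over all other settings its adjusted p ran from 0.121 to 0.378. The fit without replicate 4 called 2501 genes in all, beside 1386 with all 8 libraries. The summed cell cycle markers given above ran in the opposite order to Dnajb9, highest in Mitol KO replicates 1 and 2 and lowest in replicate 4. The sums of other cell types also differed between these libraries. The 5 of 6 megakaryocyte genes in the table summed to 2381, 3323, 4306 and 5085 normalized counts in Mitol KO replicates 1 to 4 and 3143 to 4827 in control libraries. Vwf (2006, 2885, 3074 and 3442) and Itga2b (286, 351, 1111 and 1440) made up most of these Mitol KO sums, while Pf4 was called lower. The 8 neutrophil genes summed to 485, 608, 853 and 1023 in Mitol KO replicates 1 to 4 and 405 to 616 in control libraries. Prtn3 alone gave 462, 573, 817 and 1006 of these Mitol KO sums. S100a9 had 0 counts in every Mitol KO library and 2.64 to 21.3 in control libraries. These 2 sums, made up mostly of Vwf, Itga2b and Prtn3, ran in the same order over the Mitol KO libraries as Dnajb9 and Os9. The part of all these markers in the Dnajb9, Os9 and Edem1 values was not tested.

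The HRD1 complex forms the ligase at the ER membrane. Syvn1 (chr19:6096606-6103747, plus strand), which encodes the ligase HRD1, counted 917, 827, 920 and 920 in Mitol KO and 957, 954, 839 and 721 in control replicates 1 to 4. Sel1l (chr12:91772799-91815982, minus strand), whose product holds HRD1 stable and receives cargo from the lectins, counted 1233, 1352, 1402 and 1525 in Mitol KO and 1223, 1261, 1338 and 1444 in control libraries. In both genes the groups overlapped almost fully. The 95% interval of the log2 fold change was -0.20 to 0.26 for Syvn1 (value 0.030, adjusted p = 0.889) and -0.16 to 0.25 for Sel1l (value 0.047, adjusted p = 0.795). Reads of Syvn1 could include antisense transcription, since 755 of its exon bases lie opposite the long noncoding RNA D530017H19Rik and the strand setting of the counting is not stated.

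Herpud1 (chr8:95113022-95123141, plus strand), a small ubiquitin-like domain protein of the ER membrane that binds the HRD1 complex and is among the genes most readily induced by ER stress, counted 773, 737, 743 and 856 in Mitol KO and 684, 784, 840 and 654 in control replicates 1 to 4. The log2 fold change was 0.051 (95% interval -0.18 to 0.28, adjusted p = 0.802). All but replicate 4 of the Mitol KO libraries lay inside the control range, and that replicate lay just above it. Neither Syvn1, with ERSE, nor Herpud1, with ERSE-II in the promoter printed above, was called. The same held for all 10 genes, so the calls do not set genes with an element apart from those without.

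The derlins are membrane proteins that form part of the channel for the retreating protein. Derl1 (chr15:57731819-57755879, minus strand) counted 666, 636, 696 and 693 in Mitol KO and 640, 617, 642 and 628 in control replicates 1 to 4. Derl1 differed least between replicates, with coefficients of variation of 4.15% in Mitol KO and 1.84% in control libraries, and 3 Mitol KO libraries lay just above all controls (log2 fold change 0.073, 95% interval -0.12 to 0.26, adjusted p = 0.640; exact permutation test, 2-sided, p = 0.0857). Derl2 (chr11:70896913-70910675, minus strand) counted 244, 285, 345 and 281 in Mitol KO and 268, 322, 339 and 363 in control libraries, and these ranges overlapped (log2 fold change -0.18, 95% interval -0.49 to 0.13, adjusted p = 0.454). Of the exon bases of Derl2, 394 lie opposite Mis12.

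Ube2j1 (chr4:33031369-33052363, plus strand) encodes UBC6e, the ubiquitin-conjugating enzyme anchored in the ER membrane that serves HRD1. It had the largest positive fold change and the lowest p-value of the 10 genes. Normalized counts were 790, 671, 610 and 631 in Mitol KO replicates 1 to 4 and 501, 572, 591 and 472 in control replicates 1 to 4. Every Mitol KO library lay above every control library, although the lowest Mitol KO value of 610 was close to the highest control value of 591. The means were 675 ± 80.5 and 534 ± 56.5 (SD, n = 4), 26.4% higher in Mitol KO HSCs, with a log2 fold change of 0.32 (SE 0.11, 95% interval 0.071 to 0.57, unadjusted p = 0.0158). The adjusted p of 0.10 missed the threshold, as it did with every other tool, filter, scaling and left-out library, between 0.0627 and 0.255, and the exact permutation test gave its smallest possible p of 0.0286 (2-sided). Over the 8 libraries, the profiles most like that of Ube2j1 were those of Adam17, Cnot11 and Tbc1d1, with mean absolute differences in centered log2 CPM of 0.043, 0.047 and 0.054. Of its exon bases, 184 lie opposite the long noncoding RNA 4933421O10Rik.

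Vcp (chr4:42979412-43000527, minus strand) encodes the ATPase that pulls ubiquitinated proteins from the membrane, here as in many other processes of the cell. Normalized counts were 1230, 1205, 988 and 980 in Mitol KO replicates 1 to 4 and 964, 838, 982 and 911 in control replicates 1 to 4. Mitol KO replicates 1 and 2 stood clearly above the controls, while replicate 3 lay just above the highest control library and replicate 4 just below it. The log2 fold change was 0.23 (SE 0.10, 95% interval 0.012 to 0.46, unadjusted p = 0.0403, adjusted p = 0.167), with p = 0.0571 by the exact permutation test (2-sided). The 2 libraries with high Vcp were also those with the highest cell cycle sums of 18609 and 18382. Among Mitol KO libraries Ube2j1 was also highest in these 2 (790 and 671). The part of the cell cycle genes in the Vcp and Ube2j1 values was not tested. Of the exon bases of Vcp, 776 lie opposite Spata31g1.

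**Figure D2:**
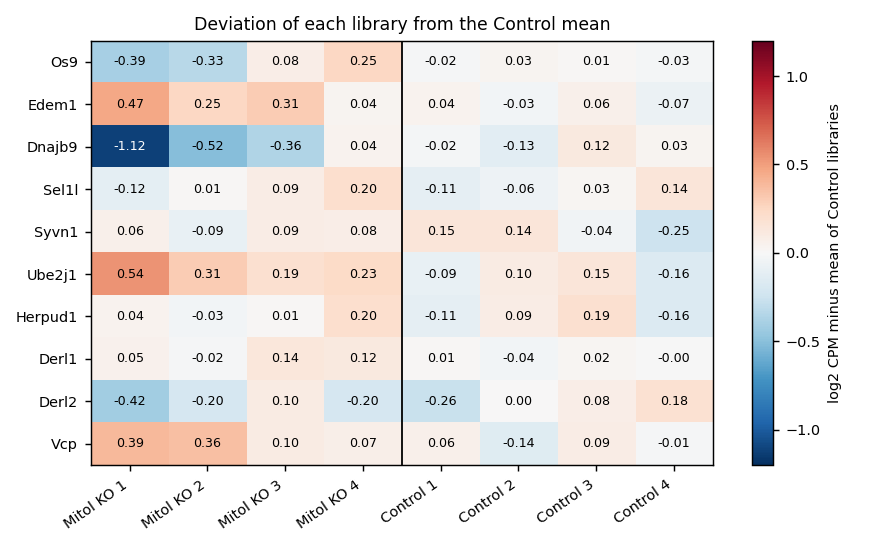
Log2 CPM of each ERAD gene in each library minus the mean of the 4 control libraries, in color from blue (lower) to red (higher), with the value printed in each cell. Dnajb9 is lowest in Mitol KO replicate 1 (-1.12) and level with the controls in replicate 4 (0.04), while Ube2j1 is highest in Mitol KO replicate 1 (0.54).

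Across libraries, the 10 genes did not move as a block. In Mitol KO replicate 1 they ranged from -1.12 in Dnajb9 to 0.54 in Ube2j1 on the log2 scale against the control mean, and in replicate 4 from -0.20 in Derl2 to 0.25 in Os9. Summed over the 10 genes, normalized counts were 7559, 7392, 7632 and 7880 in Mitol KO replicates 1 to 4 and 7029, 7121, 7413 and 6928 in control replicates 1 to 4, and the ranges touched, since Mitol KO replicate 2 lay below control replicate 3. The coefficient of variation was larger in Mitol KO than in control libraries in 8 of the 10 genes, beside 51.9% of all tested genes, with medians of 12.1% and 7.19% for the ERAD genes and 17.2% and 16.6% for all genes. Here too, genes of like level were not compared. Profiles most like that of Dnajb9 were those of Ggnbp1, Gm20949 and Irak3, with mean absolute differences of 0.071, 0.072 and 0.078 in centered log2 CPM over the 8 libraries.

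Levels of different genes were compared as normalized counts per kilobase of annotated exon. In control HSCs the order ran from Herpud1 (191 ± 22.4, SD, n = 4) over Syvn1 (178 ± 23.1), Vcp (150 ± 10.4), Sel1l (145 ± 10.8), Os9 (140 ± 2.97), Ube2j1 (122 ± 12.9), Derl1 (115 ± 2.12), Edem1 (68.6 ± 3.02) and Dnajb9 (67.5 ± 4.66) to Derl2 (34.7 ± 4.34). Neighbors in this order overlapped between libraries except at 3 steps, between Os9 and Ube2j1, between Derl1 and Edem1, and between Dnajb9 and Derl2. Edem1, Dnajb9 and Derl2 therefore formed a lower set, and the HRD1 complex genes Herpud1, Syvn1 and Sel1l stood in the upper part, along with Vcp. In Mitol KO HSCs the level of Ube2j1 was 155 ± 18.4 and that of Dnajb9 50.5 ± 15.9 on this scale. The order depended on the annotated length, since 1 of the 10 genes held its place when the longest transcript replaced the union of exons, although the lower set held the same 3 genes.

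**Figure D3:**
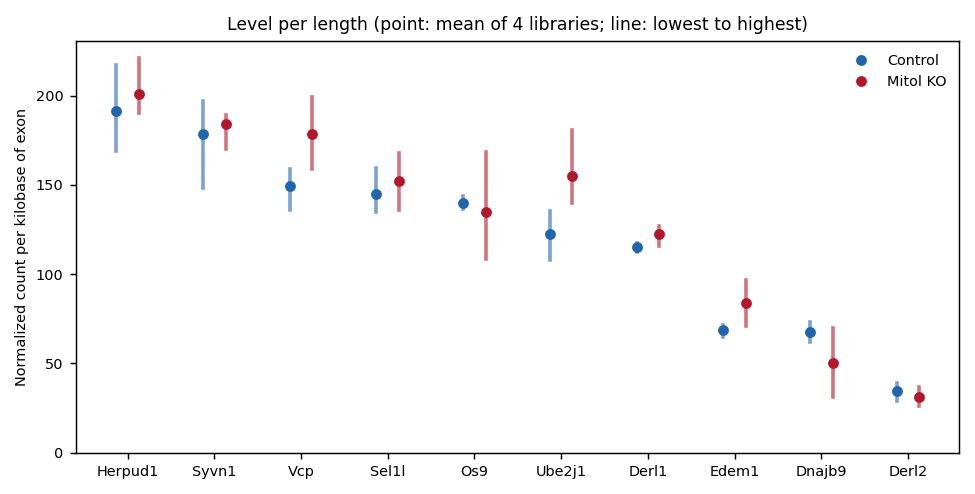
Normalized count per kilobase of union exon length (linear axis from 0) in control (blue) and Mitol KO (red) HSCs, with the mean as a point and the range of 4 libraries as a line. Edem1, Dnajb9 and Derl2 lie below the other genes, and Ube2j1 shows the separate ranges described above.

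A wider list of 63 further ERAD genes in 6 roles was then examined, of which 61 were tested, since Usp13 and Fbxo2 had too few counts. Of the 61, 1 rose and 0 fell by edgeR, beside 4.68% and 3.75% of all tested genes, a split in which upper-quartile scaling moved the share of higher genes among all calls from 55.6% to 41.3%. The gene that rose was Ubac2, which encodes a rhomboid-like ER membrane protein that works with the ligase gp78. Its normalized counts were 633, 606, 656 and 729 in Mitol KO replicates 1 to 4 and 547, 460, 454 and 515 in control replicates 1 to 4, without overlap (log2 fold change 0.39, SE 0.11, adjusted p = 0.0433). This call was lost with upper-quartile scaling (adjusted p = 0.0784) and when Mitol KO replicate 1, 2 or 3 or control replicate 2, 3 or 4 was left out (adjusted p between 0.0658 and 0.117). With upper-quartile scaling the called gene was Edem2, which was lower (log2 fold change -0.30, adjusted p = 0.0488), and without control replicate 4 it was Dnajc10, which was higher (0.44, adjusted p = 0.0446). DESeq2 called 7 of the 61, or 11.5%, all higher, beside 8.37% of all genes called as higher and 14.7% called in either direction by this tool. The median log2 fold change was 0.077 (0.014 with upper-quartile scaling), with 39 positive and 22 negative (63.9% positive, beside 47.7% of all tested genes). At an unadjusted p under 0.05 stood 16 of the 61, beside 26.4% of all genes. Of these, 14 were higher in Mitol KO HSCs (23.0% of the 61, beside 13.6% of all genes) and 2 lower. In 11 of the 61 the groups did not overlap, beside 15.4%, and in 8 of these Mitol KO was higher (13.1%, beside 8.17%).

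**Figure D4:**
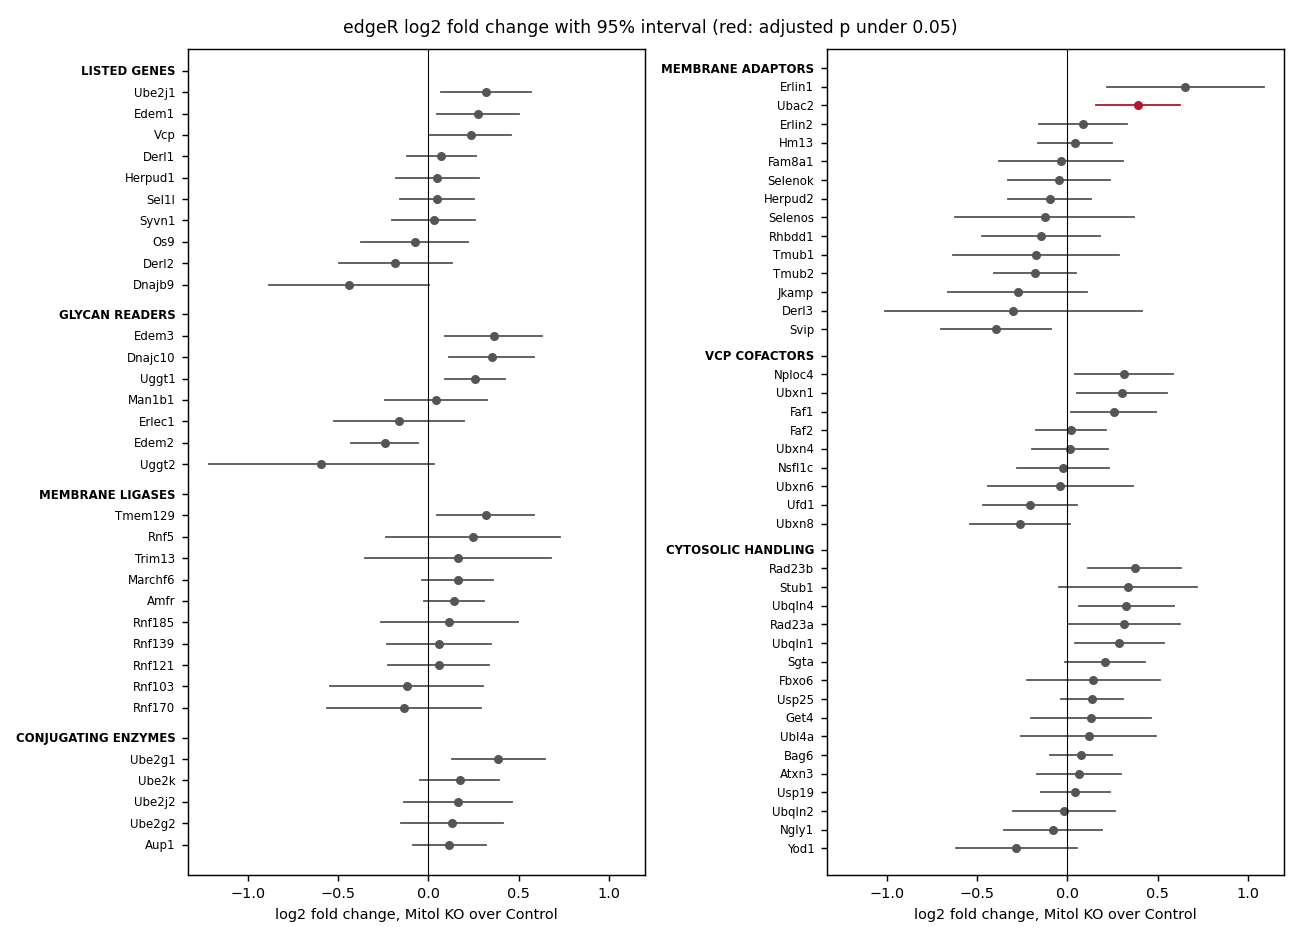
Log2 fold change of Mitol KO over control HSCs (point) with its 95% interval (line) from edgeR, for the 10 ERAD genes (listed genes) and the 61 tested genes of the wider list by role, ordered by value within each role. Ubac2, in red, is the gene with an adjusted p under 0.05, and the intervals of most genes include 0.

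Among the 7 other glycan readers and mannosidases, 4 had a positive fold change (57.1%, beside 47.7% of all tested genes). None was called by edgeR, while DESeq2 called 3, Edem3, Uggt1 and Dnajc10, all higher (42.9%). Of all genes DESeq2 called 8.37% as higher and 14.7% in either direction. Counts of signs by role were not repeated with upper-quartile scaling, which moved the median of all tested genes from -0.020 to -0.082. Edem3, a mannosidase related to Edem1, counted 673, 569, 595 and 557 in Mitol KO and 429, 539, 495 and 378 in control replicates 1 to 4, and the groups did not overlap (log2 fold change 0.36, SE 0.12, adjusted p = 0.0898, or 0.0481 by DESeq2). Uggt2, a folding sensor that puts glucose back on unfolded glycoproteins, had 48.5 ± 15.1 against 72.1 ± 19.7 normalized counts (SD, n = 4; log2 fold change -0.59, SE 0.29, adjusted p = 0.210). The role therefore held values on both sides of 0, from -0.59 to 0.36.

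Of the 10 other membrane ubiquitin ligases, 8 had a positive fold change (80%, beside 47.7% of all tested genes). Neither edgeR nor DESeq2 called any. Tmem129 had the largest value, with 306 ± 27.8 against 243 ± 16.2 normalized counts and separate groups (log2 fold change 0.32, SE 0.12, adjusted p = 0.124), and Rnf170 the smallest (-0.13, SE 0.20, adjusted p = 0.705). All 5 genes of ubiquitin conjugation had a positive value, in size from 0.12 in Aup1, which recruits the enzyme UBE2G2 to the membrane, to 0.39 in Ube2g1. Ube2g1 counted 520, 521, 453 and 415 in Mitol KO and 351, 383, 392 and 313 in control replicates 1 to 4, again without overlap (adjusted p = 0.0622). Ube2g1 was called by DESeq2 (adjusted p = 0.0236) and by edgeR without Mitol KO replicate 4 (adjusted p = 0.0237). The latter fit called 2501 genes in all, beside 1386 with all 8 libraries. The Mitol KO counts of Ube2g1 were, like the cell cycle sums, highest in replicates 1 and 2 and lowest in replicate 4. The part of the cell cycle genes in these counts was not tested.

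Of the 14 membrane adaptors and channel proteins, 10 were below 0 and 28.6% above it, beside 47.7% of all tested genes. The median of this role was -0.11. None of the 10 was called by edgeR, and the called gene Ubac2, which was higher, is in this role. Erlin1, which together with ERLIN2 forms a ring-shaped scaffold for ligases, had the largest value of the wider list, with 439, 448, 400 and 276 normalized counts in Mitol KO and 280, 287, 259 and 158 in control replicates 1 to 4 (log2 fold change 0.65, SE 0.20, adjusted p = 0.0615), and DESeq2 called it (adjusted p = 0.0182). Its Mitol KO counts, like the cell cycle sums, were lowest in replicate 4, and the part of the cell cycle genes in them was not tested. The smallest value in this role belonged to Svip, a small VCP-binding inhibitor of ERAD. It counted 180, 151, 146 and 178 in Mitol KO and 215, 196, 215 and 225 in control libraries, and every Mitol KO library lay below every control library (log2 fold change -0.39, SE 0.14, adjusted p = 0.0974).

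None of the 9 VCP cofactors was called by edgeR or DESeq2, with values from -0.26 in Ubxn8, which tethers VCP to the ER membrane (225 ± 19.5 against 266 ± 19.2 normalized counts, adjusted p = 0.218), to 0.31 in Nploc4, part of the UFD1-NPL4 dimer that lets VCP grip ubiquitin chains (1744 ± 277 against 1385 ± 170, adjusted p = 0.132). In the cytosolic handling role, 13 of 16 tested genes were positive (81.25%, beside 47.7% of all tested genes) and none was called by edgeR. Rad23b, a shuttle to the proteasome, was the largest (816 ± 80.3 against 622 ± 90.6 normalized counts, log2 fold change 0.38, adjusted p = 0.0684, and called by DESeq2 at 0.0295), and Yod1, a deubiquitinase that acts with VCP, the smallest (281 ± 27.9 against 337 ± 64.7, log2 fold change -0.28, adjusted p = 0.267).

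The regulators upstream of these genes were compared next. Xbp1, whose IRE1α-spliced form drives many ERAD genes, counted 1208, 2006, 2335 and 1772 in Mitol KO and 1001, 940, 1348 and 603 in control replicates 1 to 4. It rose (log2 fold change 0.90, SE 0.23, adjusted p = 0.0346), with Mitol KO replicate 1 within the control range, and counts per gene do not separate the spliced from the unspliced transcript. Ern1, which encodes IRE1α, fell from 2710 ± 59.7 to 2143 ± 186 normalized counts without overlap (log2 fold change -0.36, SE 0.08, adjusted p = 0.0264). The Xbp1 call was lost without Mitol KO replicate 2 or 3 or control replicate 1, 2 or 4, at adjusted p values from 0.0565 to 0.0928, and the Ern1 call without Mitol KO replicate 1, 2 or 3 or control replicate 2, 3 or 4, at 0.0591 to 0.0786. The other 5 regulators were not called. Atf6 had 632 ± 35.4 against 511 ± 56.3 normalized counts with separate groups (adjusted p = 0.115), and Hspa5, the chaperone BiP, ranged from 2335 to 4060 in Mitol KO and from 1298 to 3518 in control libraries (adjusted p = 0.812). Atf4 (log2 fold change -0.18, adjusted p = 0.589), Ddit3 (-0.30, 0.320) and Eif2ak3, which encodes PERK (0.035, 0.899), had intervals that included 0.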

How the data were processed

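HSC RNA was sequenced by the authors as single-end reads on a NextSeq, aligned with STAR to mm39, merged with SAMtools and counted per gene with Subread, and the deposited table holds these counts without normalization. The annotation and strand setting of the counting are not given in the sources used here. Of 23094 rows, each with at least 11 counts in all, 1029 without a symbol (0.335% to 0.467% of a library) entered neither the library sizes nor the tests. A GENCODE vM39 symbol was found for 20699 of the 22065 named genes, all 10 ERAD genes included, for positions and exon lengths on GRCm39.

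The test was edgeR (version 4.0.16), with TMM scaling, the default expression filter, condition as the sole term and all 8 libraries. DESeq2 (version 1.42.0), limma-voom (version 3.58.1), other scalings and filters, a replicate block and leaving out each library were alternatives. Single genes were also compared by a 2-sided exact permutation test over 70 arrangements. Some marker genes are not reported here and entered no sum. Hm13 was found under the symbol H13 through RefSeq synonyms.

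The genes, lists and tests were chosen with earlier results of these data known. Genes named beyond the 10 are the called genes and the largest and smallest fold change of each role, 7 regulators, Marchf5, and the 3 nearest profiles to the lowest-p gene in each direction. Marker genes, Edem2, Dnajc10, Uggt1, Ube2j2, Erlec1 and Herpud2 were named outside this rule, after their values were seen. Precision is limited by the depth of 7214935 to 12398138 counts, by 4 libraries per group and by the 100 cells in each, and reads were counted without molecular identifiers, so that copies of a molecule count repeatedly.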

Additional observations from a re-analysis of the deposited data

Results flagged for a closer look

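In Syvn1, Mitol KO replicate 2 had 827 normalized counts, whereas the other replicates had 917, 920 and 920. This gap was 0.958 of the range of the group, above Dixon's 95% critical value for 4 samples. It was the sole such value among the 20 groups examined, 10 genes in each of the conditions, and chance alone flags about 1 in 20 groups. The value lay within the control range of 721 to 957.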

How the results depend on the processing

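At an adjusted p under 0.05 the count of ERAD genes called was 0 with all 8 libraries under every scaling, filter and tool tried. It was 0 to 2 when single libraries were left out, the 2 being Edem1 and Dnajb9 without Mitol KO replicate 4. The threshold of 0.1 was tried with the main fit alone and also called 0, with Ube2j1 at 0.1004. The adjusted p of Ube2j1 was under 0.1 with DESeq2 (0.0627), limma-voom (0.0983) and DESeq2 size factors in edgeR (0.0935), and that of Edem1 with DESeq2 (0.0789). With upper-quartile scaling, log2 fold changes turned in Syvn1 (-0.031), Sel1l (-0.015), Herpud1 (-0.010) and Eif2ak3 (-0.028), the median of the 10 genes was -0.013 and that of the wider list 0.014. Leaving out single libraries moved the values over 0 in Syvn1 (-0.048 to 0.092), Herpud1 (-0.0034 to 0.12), Os9 (-0.18 to 0.021), Rnf170 (-0.24 to 0.018), Eif2ak3 (-0.038 to 0.098) and Hspa5 (-0.10 to 0.30). Of the wider list 1 gene was called, 7 with DESeq2, 3 with the replicate block, 9 at an adjusted p under 0.1 and 0 to 8 without single libraries. Among all genes 1386 were called, 2317 with DESeq2, 2585 at an adjusted p under 0.1, 359 without control replicate 2 and 2501 without Mitol KO replicate 4. In the order of levels per length, 1 gene held its place with the longest transcript. The cause of these differences was not tested. Over all genes, replicate numbers showed no pairing of the libraries. Deviations of libraries of the same number correlated at 0.080, -0.070, 0.053 and 0.067, beside -0.13 to 0.097 for unlike numbers. Pairing in a part of the genes was not tested. The block called 0 of the 10 genes and 1652 genes in all. Genes at about 100 normalized counts had wide intervals at this depth.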

Other observations

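The mannosidase-related genes Edem1 and Edem3 had higher means and Edem2 a lower mean in Mitol KO HSCs, and their ratios within a library do not depend on scaling. The ratio of Edem1 to Edem2 counts was 1.23, 0.944, 1.03 and 0.910 in Mitol KO replicates 1 to 4 and 0.763, 0.729, 0.737 and 0.650 in control replicates 1 to 4. Every Mitol KO library lay above every control library. For Edem3 to Edem2 the ratio was 0.682 to 0.903 in Mitol KO and 0.399 to 0.617 in control libraries, also without overlap. Edem3 was already separate as higher and Edem2 as lower, so this ratio could not overlap and adds nothing to the single genes. Edem2 itself counted 745, 835, 783 and 741 in Mitol KO and 878, 875, 919 and 947 in control replicates 1 to 4 (edgeR, log2 fold change -0.24, SE 0.086, adjusted p = 0.0997).

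The ratio of Dnajb9 to Xbp1 counts was 0.108, 0.0995, 0.0937 and 0.165 in Mitol KO replicates 1 to 4 and 0.277, 0.274, 0.226 and 0.473 in control replicates 1 to 4, again without overlap. In the other 7 ratios examined, Edem1 to Edem3, Derl1 to Derl2, Syvn1 to Sel1l, Ube2j1 to Ube2j2, Os9 to Erlec1, Herpud1 to Herpud2 and Herpud1 to Dnajb9, the groups overlapped. These pairs were chosen after the values were seen, so no test is given. Of single genes 15.4% had groups that did not overlap, and the share among ratios of gene pairs was not computed.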
